A study of Rattus norvegicus with 12 samples.

Results

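Magnetic stimulation given on top of stem cells was examined in 8 of the 12 libraries of the series, 4 of the group rTMS_MSC against 4 of the group MSC, across all genes. The libraries were chosen by their labels alone. All groups held rat cells labelled PC12 after oxygen-glucose deprivation with reoxygenation (OGD/R), and every library was labelled as taken 48 h after treatment. The MSC group had received mesenchymal stem cells, the rTMS_MSC group the same stem cells plus 10 Hz repetitive transcranial magnetic stimulation (rTMS), and the OGDR group (4 libraries, shown beside them) neither. Since the MSC group carried the deprivation and the stem cells too, the 2 groups differ in their labels by the stimulation. No group with stimulation but without stem cells, and none without deprivation, was analysed here. The sources used here do not give the species of the stem cells, how these were combined with the PC12 cells, the field strength or the number of pulses. No label states that the 4 libraries of a group came from separate cultures, and p-values therefore reflect the spread among these libraries only, which may be technical.

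In rTMS a coil passes brief current pulses whose changing magnetic field induces electric currents in nearby tissue. In excitable cells such currents can open voltage-gated channels, let calcium in and activate the kinases ERK and CaMK, which act through the factors SRF, ELK and CREB on immediate early genes. Those genes, Egr1 and Fos among them, need no new protein to start transcription and usually return to their resting level soon after a single stimulus. PC12 is a line from a rat adrenal medullary tumour that is widely used as a model of neuron-like cells.

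In total 30454 genes were counted, and 13692 passed a filter on low counts and were tested. Each of the 8 libraries held 18246250 to 20158683 counts in genes, and 16736 to 16964 genes had at least 1 count in each. The label PC12 was set against marker genes: of 28 chromaffin genes, 6 had no count in any of the 8 libraries, the catecholamine enzyme Ddc and the lineage factor Hand2 among them, and 16 stayed under 1 CPM (counts scaled to a common library total) in each. Of 17 glial and Schwann cell genes, 12 averaged at least 10 CPM. The defining chromaffin enzymes were thus without counts or scarce, and the cells are called here by their label only. Libraries numbered 3 lay furthest out in both groups. On the main axis of spread among the 8 libraries, which carried 37.2% of the variance, MSC 3 lay at -30.1 and rTMS_MSC 3 at 39.4. These were the 2 ends of the range. The same axis separated the groups, with the other MSC libraries at -19, -7.2 and -10.9 and the other rTMS_MSC libraries at 10.4, 14.8 and 2.6. Leaving out replicate 3 of both groups thus also takes away the 2 libraries furthest apart along the group difference. The counts given below for gene lists are therefore also given without replicate 3 of both groups.

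Stimulation on top of stem cells went with many small differences and few large ones. Genes were tested by edgeR's quasi-likelihood test with Benjamini-Hochberg adjustment. The fit held all 12 libraries, so the OGDR libraries also entered the estimate of the spread. At an adjusted p under 0.05, 2475 genes (18.1% of those tested) changed, 977 upward (7.14%) and 1498 downward (10.9%). The median log2 fold change was 0.28 among genes that rose and -0.40 among genes that fell, and the estimate reached 2-fold in 16 and 92 of them. Without replicate 3 of both groups, 677 of 13808 tested genes changed (4.90%), 154 upward (1.12%) and 523 downward (3.79%). Of these, 147 and 519 were called in the same direction with replicate 3 included. All 2475 genes kept their sign in that smaller comparison. Its libraries are a part of those that selected the genes, so shared calls and signs are no independent check. The 4 values of a group did not overlap those of the other in 2602 tested genes (19.0%), with rTMS_MSC above in 1130 (8.25%) and below in 1472 (10.8%).

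**Figure D1:**
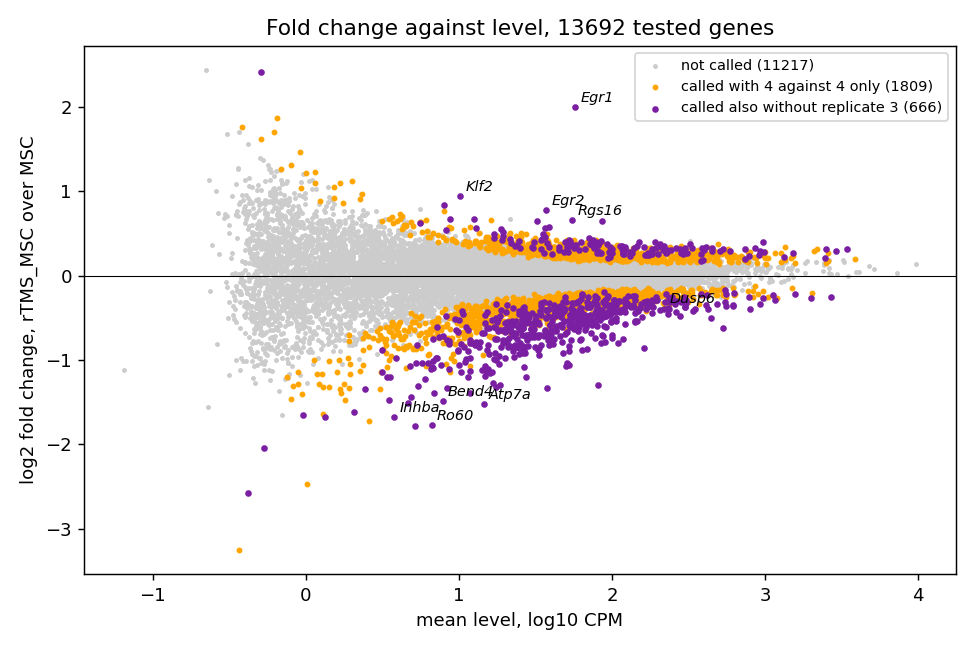
Log2 fold change of rTMS_MSC over MSC (vertical) against mean level in log10 CPM (horizontal) for 13692 tested genes, coloured by whether the adjusted p was under 0.05 with all libraries or also without replicate 3. Egr1, at a log2 fold change of 2.00, had the largest rise by the naming rule (called genes with a symbol, a mean of 5 CPM or more in the higher group and no overlap between groups), some scarce genes toward the left lie as high or higher, and most called genes lie close to 0.

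Single libraries set the number of calls. Genes that rose numbered 394 without MSC 1, 282 without MSC 3, 578 without rTMS_MSC 2 and 475 without rTMS_MSC 3, and genes that fell numbered 919 without MSC 1 and 724 without MSC 3. Within its own group, rTMS_MSC 3 lay above the other 3 libraries by a median of 0.214 log2 units over the genes called higher and below them by 0.28 over the genes called lower (a difference of -0.28). MSC 3 showed the opposite, -0.104 and 0.19, and so did rTMS_MSC 4, -0.119 and 0.187. These genes were called from the same libraries, so part of the deviations in MSC and rTMS_MSC is built in. Over all genes MSC 3 deviated by -0.009 and rTMS_MSC 3 by -0.008. OGDR 3, which had neither treatment and is not part of the comparison, deviated from its group by -0.074 and 0.122 over the genes called higher and lower. OGDR 2 deviated the other way, by 0.075 and -0.076. The called genes thus also varied among libraries of 1 group, in both directions, and the part of this spread in the calls was not tested beyond the counts given here.

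**Figure D2:**
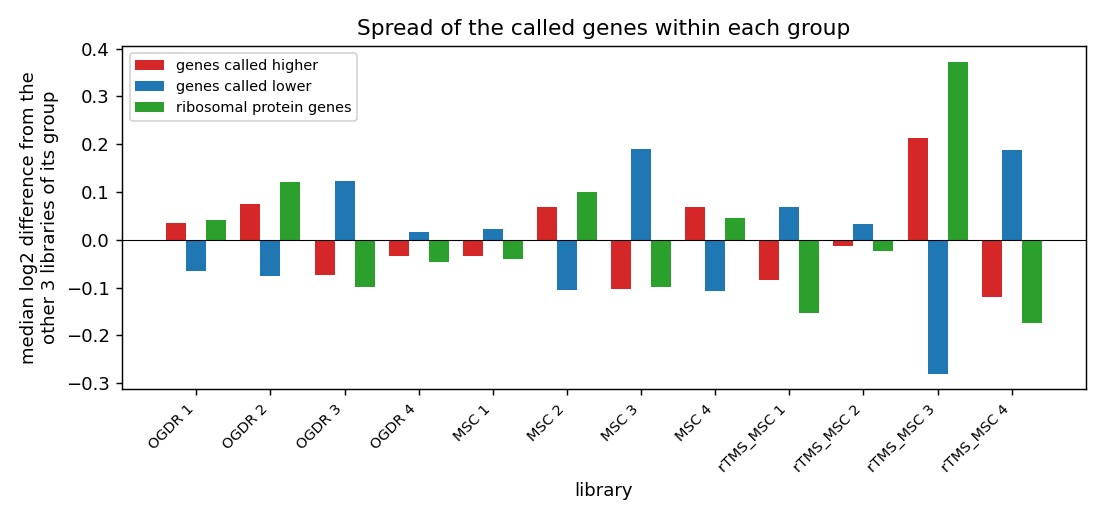
Median log2 difference of each of 12 libraries from the other 3 of its group (vertical), over the genes called higher, the genes called lower and the ribosomal protein genes. The largest deviations are those of rTMS_MSC 3, 0.214, -0.28 and 0.373, and MSC 3 and rTMS_MSC 4 deviate the opposite way.

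Egr1 had the largest rise among the genes that met the naming rule. That rule asks for no overlap between the groups, so the separation given below for Egr1, Egr2, Klf2, Inhba and Rgs16 is part of their selection. Egr1 encodes a zinc-finger transcription factor of the immediate early class, and its family member Egr2 also drives myelination in Schwann cells. The start regions of Egr2 and of Plk2, a kinase that weakens active synapses, are shown because they hold motifs of the factors SRF and CREB named above. Both are the 150 bases before the RefSeq transcription start (build GRCr8), 5′ to 3′ on the strand of the gene. Capitals mark a CArG box, the core of the serum response element bound by SRF, in Egr2, and a cyclic AMP response element (CRE, TGACGTCA), bound by CREB, in Plk2.
Egr2 (chr20:21054442-21054591, minus strand): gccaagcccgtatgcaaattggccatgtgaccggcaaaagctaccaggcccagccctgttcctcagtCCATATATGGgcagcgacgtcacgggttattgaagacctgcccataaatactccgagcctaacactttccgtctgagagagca
Plk2 (chr2:43702386-43702535, plus strand): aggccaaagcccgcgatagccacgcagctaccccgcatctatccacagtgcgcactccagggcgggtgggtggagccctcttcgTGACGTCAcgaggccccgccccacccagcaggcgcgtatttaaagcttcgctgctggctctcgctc
The CArG box of Egr2 begins at position -83 from the start, and the CRE of Plk2 at -66. The window of Egr1 held 2 CArG boxes. Both motifs were searched on both strands in the 250 bases before each start. Of the 12 activity-dependent genes that rose, 7 matched the promoter table, 2 of them with a CArG box and 1 with a CRE, and Atf3, Csrnp1, Egr3, Klf2 and Myc are named only. Over all 33469 windows, 1.5% held a CArG box and 1.59% a CRE. A match describes letters and does not show that a factor was bound.

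Egr1 stood at 23.0, 23.8, 23.9 and 21.2 CPM in MSC 1 to 4 and at 90.4, 90.8, 92.4 and 93.5 CPM in rTMS_MSC 1 to 4. The stimulated libraries lay far above the others and close to each other, replicate 3 included. The log2 fold change was 2.00 ± 0.0754 (standard error; edgeR quasi-likelihood test, adjusted p = 6.94e-13), a 3.99-fold rise, and 2.01 without replicate 3. In the OGDR libraries Egr1 ran from 29.5 to 36.4 CPM, above MSC and below rTMS_MSC. Egr2 read 27.7, 26.4, 25.9 and 29.0 CPM in MSC and 48.7, 44.7, 42.6 and 51.4 CPM in rTMS_MSC. Its groups did not overlap either, and the rise was 0.78 ± 0.0906 (adjusted p = 0.00024). Klf2, a zinc-finger factor known as a brake on inflammatory genes, read 6.55, 7.65, 6.44 and 7.17 CPM against 11.6, 12.7, 17.8 and 11.5 CPM. Its highest library was rTMS_MSC 3, the rise was 0.94 ± 0.188 (adjusted p = 0.00327), and it was 0.74 without replicate 3. Junb, a partner of Fos in the AP-1 dimer, went from 68.3, 76.7, 62.4 and 66.4 CPM to 88.2, 81.7, 103 and 81.6 CPM. All stimulated libraries again lay above all MSC libraries, by 0.37 ± 0.0786 on the log2 scale (adjusted p = 0.00451).

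Some other activity-dependent genes of the panel did not follow. Fos, the prototype of the class, read 18.4, 19.3, 16.8 and 14.1 CPM in MSC and 19.6, 17.5, 18.4 and 20.6 CPM in rTMS_MSC, and the groups overlapped (0.15 ± 0.11, adjusted p = 0.357). Nr4a1, a nuclear receptor induced by activity, read 124, 126, 119 and 120 against 107, 124, 124 and 122 CPM (-0.04 ± 0.0602, adjusted p = 0.702). The synaptic gene Arc was below 2 CPM in each library (0.29 ± 0.446, adjusted p = 0.686). Bdnf, a neuronal growth factor under CREB, stayed between 1.28 and 1.94 CPM (0.14 ± 0.278, adjusted p = 0.752). None of these 4 passed the test, which does not show that they were equal.

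Of 28 tested activity-dependent transcription factors, 8 rose (28.6%) and 2 fell, with a median log2 fold change of 0.09 against 0.02 over all tested genes. Without replicate 3 of both groups 6 rose and 0 fell. Beside the 4 named above, Myc, Csrnp1, Atf3 and Egr3 rose, and Fosl2 and Nr4a2 fell. These 6 genes were named after their values were seen. The falls numbered 0 without MSC 1, MSC 3 or rTMS_MSC 3 and 1 without MSC 2 or rTMS_MSC 4. Among 21 effector genes 4 rose and 2 fell, and without replicate 3 the counts were 2 and 1. The rises numbered 1 without MSC 1 or MSC 3 and 2 without rTMS_MSC 2 or rTMS_MSC 3, and the falls 1 without MSC 3 or rTMS_MSC 3.

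The effectors that rose did so by less than Egr1 and Egr2. Gadd45g, a stress sensor linked to DNA demethylation, read 18.0, 23.8, 21.2 and 21.0 CPM in MSC and 24.2, 31.2, 39.5 and 24.2 CPM in rTMS_MSC. The rise of 0.50 ± 0.134 (adjusted p = 0.0151) was highest in rTMS_MSC 3 and did not pass without MSC 1 or rTMS_MSC 3 (highest adjusted p = 0.0607). Plk2 read 92.6, 83.5, 88.7 and 91.9 CPM against 103, 97.4, 102 and 115 CPM. Its groups did not overlap, and the rise of 0.23 ± 0.0626 (adjusted p = 0.0186) did not pass without MSC 2 or MSC 3 (highest adjusted p = 0.0547). Inhba, the activin subunit, went the other way, from 4.58, 5.75, 8.99 and 3.56 CPM to 1.84, 2.42, 1.27 and 1.60 CPM. It was lower in each stimulated library than in each MSC library, with a log2 fold change of -1.67 ± 0.268 (adjusted p = 0.00112) and of -1.24 without replicate 3. MSC 3 held the highest of the 8 values and rTMS_MSC 3 the lowest.

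**Figure D3:**
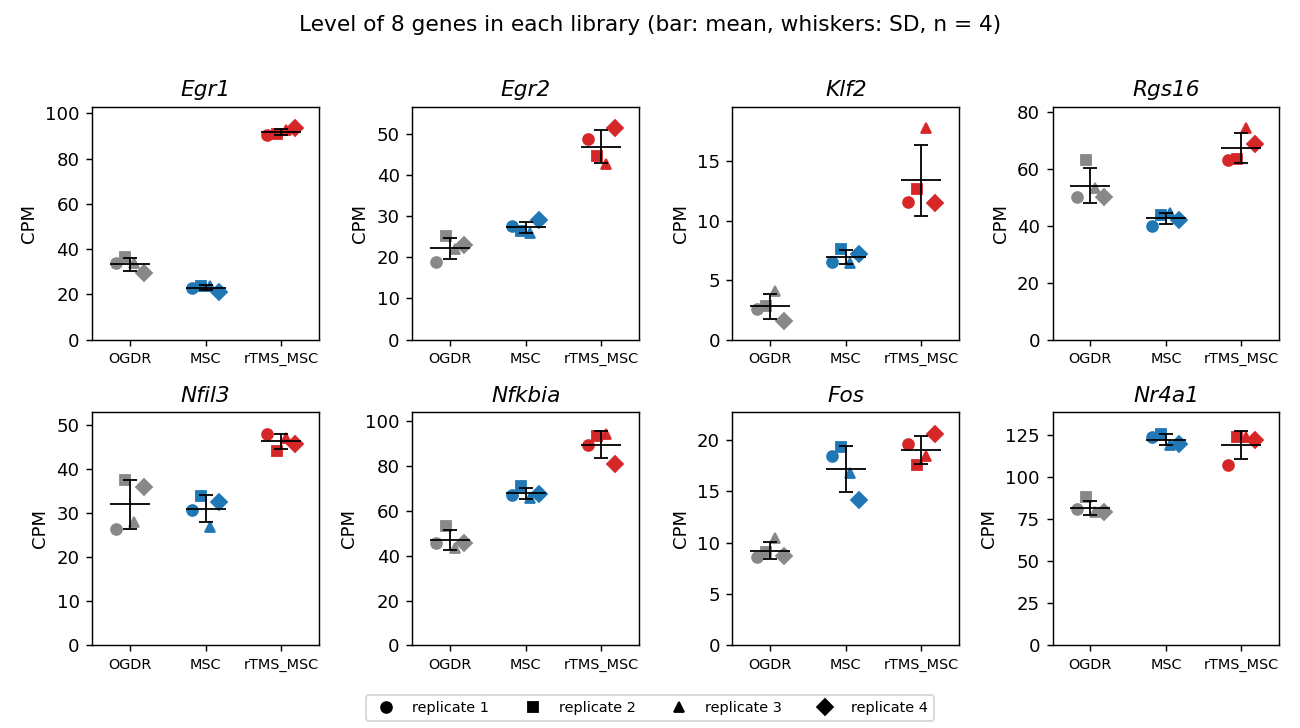
Level in CPM (vertical) of 8 genes in each library of OGDR, MSC and rTMS_MSC, with the group mean and SD (n = 4) and a marker shape per replicate number. Egr1, Egr2, Klf2, Rgs16, Nfil3 and Nfkbia are higher in each stimulated library than in each MSC library, and Fos and Nr4a1 overlap.

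Rgs16 switches off G protein signals by speeding GTP hydrolysis, and it was the member of its list that rose. It read 40, 43.8, 44.7 and 42.2 CPM in MSC and 63.1, 63.7, 74.5 and 68.7 CPM in rTMS_MSC. The groups were well apart, by 0.66 ± 0.0819 (adjusted p = 0.00036). Of 19 regulators and receptors of G protein signalling, 1 rose and 2 fell, also without replicate 3. The falls numbered 1 without any of MSC 1, MSC 3, MSC 4, rTMS_MSC 1 and rTMS_MSC 2, and the rises 2 without MSC 4 or rTMS_MSC 1. Adgrl1, the latrophilin receptor, fell by 0.46 ± 0.0794 (adjusted p = 0.00163). The sphingosine phosphate receptor S1pr2 fell by 0.25 ± 0.0794, and passed with 1 of the 8 libraries left out only where that was rTMS_MSC 3 (highest adjusted p = 0.0824).

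Clock genes kept their calls without replicate 3. The circadian clock runs on the activators Clock and Bmal1 and on the repressors they induce, and serum, glucocorticoids or cAMP can reset it. Of 18 tested clock genes 4 rose and 1 fell, and the same 5 were called without replicate 3. With MSC 4 left out 2 fell, and with rTMS_MSC 4 left out 3 did. The median was -0.06. Nfil3, a repressor of D-box genes, read 30.7, 33.9, 26.9 and 32.6 CPM in MSC and 48.1, 44.2, 47.2 and 45.8 CPM in rTMS_MSC. The groups did not overlap, and the rise was 0.58 ± 0.104 (adjusted p = 0.00207). Nr1d1, the repressor REV-ERB alpha, rose from 66.4, 74.7, 71.4 and 74.0 to 90.6, 94.3, 106 and 82.3 CPM. Its gain was 0.38 ± 0.0730 (edgeR quasi-likelihood test, adjusted p = 0.00251). Only rTMS_MSC 1 lay within the range of the OGDR libraries, 83.7 to 93.4 CPM, with rTMS_MSC 2 and 3 above that range and rTMS_MSC 4 just below. Ciart, another repressor of the clock, read 15.9, 14.7, 18.6 and 11.9 CPM against 25.8, 20.4, 21.4 and 22.3 CPM, a rise of 0.56 ± 0.127 (adjusted p = 0.00659).

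Per1, which is both a clock repressor and an activity-dependent gene, read 117, 132, 118 and 114 CPM in MSC and 146, 146, 139 and 133 CPM in rTMS_MSC. The rise of 0.23 ± 0.0622 (adjusted p = 0.0157) was narrow, and it did not pass without MSC 1, MSC 3 or rTMS_MSC 2 (highest adjusted p = 0.0558). In OGDR it ran from 17.8 to 20.6 CPM, so both groups with stem cells lay far above. Clock itself went from 60.7, 59.5, 75.7 and 60.5 to 46.7, 49.2, 35.6 and 51.0 CPM. It fell by 0.49 ± 0.108 (adjusted p = 0.00577) and by 0.30 without replicate 3, with MSC 3 the highest and rTMS_MSC 3 the lowest library.

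Among the calls for ERK feedback, for the cAMP and CREB pathway and for calcium signalling, falls outnumbered rises. Of 18 ERK feedback genes 1 rose and 6 fell (33.3%, median -0.08), and without replicate 3 the counts were 0 and 2. Without replicate 3 their median was 0.04, and 10 of the 18 lay above 0. The falls numbered 3 without MSC 1, MSC 3 or rTMS_MSC 2, and the rises 2 without MSC 2. Dusp6, the phosphatase that ERK induces to switch itself off, read 249, 249, 256 and 244 CPM in MSC and 188, 184, 180 and 209 CPM in rTMS_MSC. All stimulated libraries lay below all others, OGDR included (239 to 251 CPM). The fall was -0.39 ± 0.0526 (edgeR quasi-likelihood test, adjusted p = 0.000595), and -0.35 without replicate 3. Spred2, an inhibitor of RAF activation, read 38.7, 33.7, 38.0 and 32.7 against 24.5, 23.1, 18.1 and 26.3 CPM. It fell by 0.63 ± 0.103 (adjusted p = 0.00122). Dusp16, a phosphatase of JNK, fell by 0.43 ± 0.109 and did not pass without MSC 3 (adjusted p = 0.0545). The ETS factor Etv4 was the member that rose, by 0.23 ± 0.0607, and it did not pass without MSC 1 or MSC 3 (highest adjusted p = 0.0601).

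Among 18 genes of the cAMP and CREB pathway 0 rose and 6 fell (33.3%, median -0.20), and 1 fell without replicate 3. The falls numbered 3 without any of MSC 1, MSC 3, rTMS_MSC 2 and rTMS_MSC 3. Creb1, the CRE-binding factor, read 21.2, 20.9, 25.3 and 21.9 CPM in MSC and 16.3, 14.4, 11.1 and 17.6 CPM in rTMS_MSC. It fell by 0.59 ± 0.133 (adjusted p = 0.00638, and 0.0504 without replicate 3), lowest in rTMS_MSC 3. Pde3b, which degrades cAMP, went from 50.7, 45.9, 53.4 and 47.4 to 37.1, 35.1, 33.0 and 38.8 CPM, a fall of 0.45 ± 0.0905 (adjusted p = 0.00327) that was also called without replicate 3. The CREB coactivator Crtc3 fell by 0.41 ± 0.101 (adjusted p = 0.0104, and 0.0604 without replicate 3).

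Of 33 genes for calcium entry, stores and signalling 1 rose and 11 fell (33.3%, median -0.14), and 0 and 6 did without replicate 3. The falls numbered 7 without MSC 1 and 6 without MSC 3, and the rises 0 without either and 2 without rTMS_MSC 4. Cacna2d1, the channel subunit that binds gabapentin, read 21.4, 18.1, 28.6 and 20.0 CPM in MSC and 10.1, 8.21, 7.16 and 13.9 CPM in rTMS_MSC. Its groups did not overlap, and it fell by 1.16 ± 0.176 (adjusted p = 0.000832) and by 0.88 without replicate 3. Itpr1, the calcium release channel of the endoplasmic reticulum, went from 110, 94.1, 121 and 103 to 82.0, 82.3, 64.7 and 85.4 CPM. Here too MSC 3 was highest and rTMS_MSC 3 lowest, and the fall was -0.45 ± 0.0932 (adjusted p = 0.00424). The kinase Camk2d fell by 0.53 ± 0.0964 (adjusted p = 0.00214), and Nfatc3, a factor switched on by calcineurin, by 0.34 ± 0.0653 (adjusted p = 0.00254). Of 11 ion channels of excitable cells 0 rose and 2 fell, and 0 did without replicate 3. The sodium channel Scn1a fell by 0.39 ± 0.117, and did not pass without MSC 1, MSC 3 or rTMS_MSC 3 (highest adjusted p = 0.0925). The falls numbered 0 without each of those libraries and 1 without rTMS_MSC 1 or rTMS_MSC 2, and 1 rose without rTMS_MSC 4.

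Inflammatory genes gave small rises that rested on single libraries. Chemokines such as Ccl2 recruit monocytes, and NF-kB induces both them and its own inhibitors. Of 22 cytokines and chemokines 5 rose (22.7%) and 1 fell, with a median of 0.17, and without replicate 3 both counts were 0. The rises numbered 2 without MSC 1 or MSC 2, 3 without rTMS_MSC 1 or rTMS_MSC 2, and 1 without MSC 3 or rTMS_MSC 3. Ccl2 read 354, 342, 323 and 344 CPM in MSC and 379, 353, 413 and 389 CPM in rTMS_MSC. The groups overlapped only at their edges, with rTMS_MSC 2 just below MSC 1, and the rise of 0.17 ± 0.0518 (adjusted p = 0.0302) did not pass without MSC 3 or rTMS_MSC 3 (highest adjusted p = 0.104). The OGDR libraries read 809 to 855 CPM, so both groups with stem cells lay far below. Ccl4, a chemokine for macrophages and lymphocytes, rose from 3.44 ± 0.658 to 5.04 ± 0.432 CPM (mean ± SD, n = 4; 0.55 ± 0.161, adjusted p = 0.0243), and did not pass without MSC 1, MSC 2 or rTMS_MSC 3 (highest adjusted p = 0.0713). Csf1, the macrophage growth factor, fell from 824, 830, 834 and 827 to 728, 736, 699 and 762 CPM, by 0.18 ± 0.0454 (adjusted p = 0.0113), and its adjusted p without replicate 3 was 0.0555. Summed macrophage and microglia markers ran from 52.9 to 67.5 CPM in MSC and from 65.0 to 78.9 CPM in rTMS_MSC, with 4 of 17 at 0 (Adgre1, C1qa, C1qb and Cd163). Most of this sum was Cd14, at 49, 63.9, 58.2 and 58.1 CPM in MSC and 67.6, 65.3, 74.4 and 61.9 CPM in rTMS_MSC. In each library 14 of the 17 markers stayed under 1 CPM. Of the 3 tested, none passed, with or without replicate 3, and 1 rose without MSC 2 or rTMS_MSC 4. Their part in the chemokine values was not tested.

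The panel of classical mediators gave little. Il6 lay between 0.271 and 1.39 CPM in all 8 libraries (0.16 ± 0.444, adjusted p = 0.834), and Tnf between 0.812 and 2.77 CPM (0.50 ± 0.345, adjusted p = 0.318). Il1b had 4 counts in the MSC group and 1 in the rTMS_MSC group and was not tested. Nlrp3, the inflammasome sensor, averaged 1.82 ± 0.403 and 1.79 ± 0.496 CPM (-0.02 ± 0.300, adjusted p = 0.965). Of 15 inflammasome genes 1 rose and 1 fell, Ninj1 and Nlrp1a, and neither passed without MSC 3 (highest adjusted p over single libraries 0.102 and 0.0766). Ninj1 did not pass without MSC 1, rTMS_MSC 2 or rTMS_MSC 3 either, and without replicate 3 both counts were 0. In that list 2 rose without MSC 2, rTMS_MSC 1 or rTMS_MSC 4 and 3 without MSC 4.

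Of 36 NF-kB genes 3 rose and 4 fell, near the shares over all tested genes, and 1 and 0 did without replicate 3. The falls numbered 2 without MSC 1 or rTMS_MSC 3 and 1 without MSC 3, and 5 rose without rTMS_MSC 4. Nfkbia, the inhibitor that NF-kB induces against itself, read 67.0, 71.2, 65.8 and 67.5 CPM in MSC and 89.4, 93.3, 94.6 and 81.1 CPM in rTMS_MSC. Its groups did not overlap, and the rise of 0.40 ± 0.0719 (adjusted p = 0.00207) was 0.36 without replicate 3. Nfkb1, the p50 precursor, did not pass (-0.17 ± 0.0589, adjusted p = 0.0558). Traf3, which restrains the alternative NF-kB branch, fell by 0.35 ± 0.0833 (adjusted p = 0.0082, and 0.0554 without replicate 3).

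Of 30 interferon and antigen presentation genes 8 rose (26.7%) and 1 fell, with a median of 0.19, and 2 and 0 did without replicate 3. The rises numbered 2 without MSC 1 or MSC 3 and 5 without rTMS_MSC 2. B2m, the light chain of MHC class I, read 899, 873, 816 and 979 CPM in MSC and 1020, 1050, 1170 and 1090 CPM in rTMS_MSC. It rose by 0.28 ± 0.0561 (adjusted p = 0.00327) and was also called without replicate 3. Bst2, the virus tether, rose by 0.41 ± 0.0881 (adjusted p = 0.00505) and by 0.25 without replicate 3. Rsad2, the antiviral enzyme viperin, fell by 0.39 ± 0.104, and did not pass without MSC 3 or rTMS_MSC 2 (highest adjusted p = 0.0627). Of 15 genes of the JAK-STAT3 and acute phase list 0 rose and 2 fell, and none did without replicate 3. These were the receptor chain Il6st (-0.23 ± 0.0629) and the kinase Jak2 (-0.38 ± 0.102). Neither passed without MSC 3 (highest adjusted p over single libraries 0.0623 and 0.0756), and Jak2 did not without MSC 1.

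Most ribosomal protein transcripts rose by small amounts. Ribosomal protein genes encode the shells of the subunits, and they are controlled as a group through growth signalling. Of 77 tested cytosolic ribosomal protein genes 55 rose (71.4%) and 0 fell, and their median log2 fold change was 0.27. Without replicate 3 of both groups 8 rose and the median was 0.14, while 76 of 77 lay above 0 in both comparisons. The rises numbered 24 without MSC 1, 17 without MSC 3 and 31 without rTMS_MSC 3. As a share of all counts they held 2.57 ± 0.109% in the MSC libraries and 3.02 ± 0.328% after stimulation (mean ± SD, n = 4), and rTMS_MSC 3 held the highest share. The groups did not overlap, but the exact permutation test, which cannot go below 0.0286 here, gave that value (2-sided) and an adjusted p of 0.0857 over 6 library properties. Copies of these genes elsewhere in the genome can share reads with them, so single members are uncertain. Their transcripts are short, and the gene length and base composition of the genes that rose or fell, in this list and in all others, were not analysed here.

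Rpl5, which also binds the 5S ribosomal RNA, read 457, 472, 440 and 520 CPM in MSC and 572, 577, 644 and 555 CPM in rTMS_MSC. The groups did not overlap, and the rise was 0.31 ± 0.0570 (adjusted p = 0.00214) with all libraries and 0.23 without replicate 3. Rps24 rose from 292, 289, 279 and 317 to 350, 372, 419 and 340 CPM, by 0.33 ± 0.0606 (adjusted p = 0.00214). In OGDR these 2 genes read 576 to 610 and 351 to 365 CPM, within the spread of rTMS_MSC and above MSC. Among 31 translation factors 10 rose (32.3%) and 2 fell, and 3 and 1 did without replicate 3. The rises numbered 4 without MSC 1 or MSC 3 and 5 without rTMS_MSC 3, and the falls 1 without MSC 1, MSC 3, rTMS_MSC 2 or rTMS_MSC 3 and 4 without rTMS_MSC 4. Eif1, which guards start codon choice, rose by 0.26 ± 0.0518 (adjusted p = 0.00351), and the initiation subunit Eif3h by 0.26 ± 0.0538 (adjusted p = 0.00384). Tpt1, a growth-linked protein translated with the ribosomal genes, rose by 0.24 ± 0.0533 (adjusted p = 0.00617).

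Respiratory chain transcripts also rose more often than they fell. The chain passes electrons through complexes I to IV and drives ATP synthase, with most subunits encoded in the nucleus and a few in the mitochondrial genome. Of 49 nuclear-encoded genes 30 rose (61.2%) and 1 fell, with a median of 0.25. Without replicate 3 these numbers were 3, 0 and 0.13. The rises came to 10 without MSC 1, 9 without MSC 3, 16 without rTMS_MSC 2 and 12 without rTMS_MSC 3, and the fall was lost without MSC 1, MSC 3, rTMS_MSC 1 or rTMS_MSC 3. Cox6b1, a subunit of complex IV, read 130, 134, 125 and 133 CPM in MSC and 160, 163, 209 and 156 CPM in rTMS_MSC. It was highest in rTMS_MSC 3, and rose by 0.40 ± 0.0811 (adjusted p = 0.00361), or by 0.27 without replicate 3. The complex I subunit Ndufv2 rose by 0.30 ± 0.0654 (adjusted p = 0.00575). The complex III subunit Uqcrb rose by 0.33 ± 0.0747, with an adjusted p without replicate 3 of 0.0521.

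Transcripts of the mitochondrial genome kept their number of calls without replicate 3. Of its 13 protein-coding genes 5 rose (38.5%) and 0 fell, the median was 0.17, and 5 rose without replicate 3, of which 4 were shared. The count was 9 without MSC 4 and 8 without rTMS_MSC 3, both higher, and 1 fell without MSC 2 and 2 without rTMS_MSC 4. Mt-nd3, a complex I subunit, read 157, 168, 153 and 183 CPM in MSC and 203, 212, 244 and 217 CPM in rTMS_MSC. Its groups did not overlap (0.40 ± 0.0708, adjusted p = 0.00178). Mt-atp6, a subunit of ATP synthase, went from 2200, 2120, 2120 and 2520 to 2740, 2680, 2730 and 2990 CPM, by 0.31 ± 0.0621 (adjusted p = 0.00318). Mt-co2 (0.29 ± 0.0617), Mt-nd1 (0.21 ± 0.0502) and Mt-co3 (0.20 ± 0.0561) were the others, and Mt-co3 did not pass without MSC 3 (adjusted p = 0.0696). Mitochondrial transcripts made up 2.76 ± 0.209% of counts in MSC and 3.06 ± 0.188% after stimulation (mean ± SD, n = 4; exact permutation test, 2-sided p = 0.0857, adjusted p = 0.171).

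**Figure D4:**
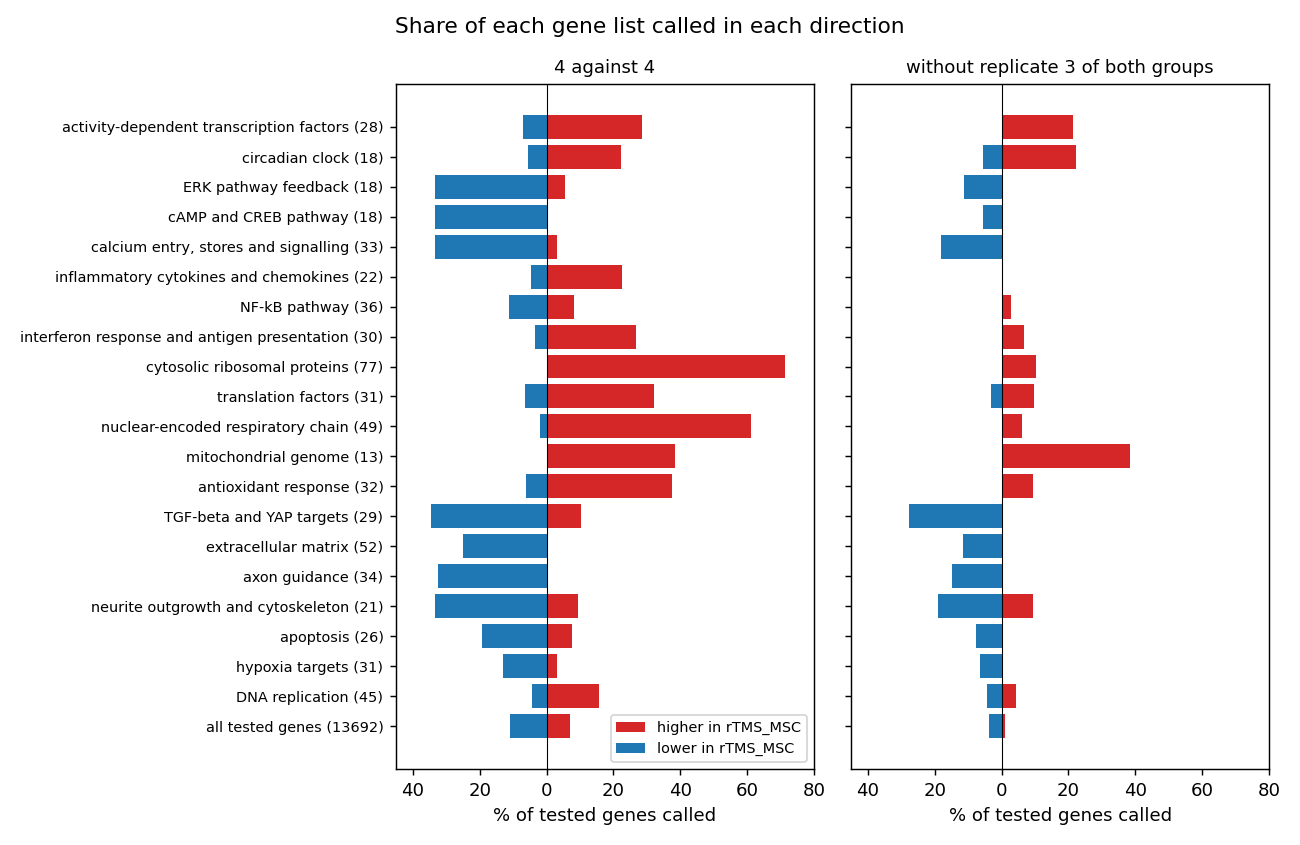
Percent of the tested genes of 20 lists, and of all tested genes, called higher (right of 0) or lower (left of 0) in rTMS_MSC. Calls are from the fit of all 12 libraries and from that without replicate 3 of both groups, and the number tested stands in brackets. Ribosomal proteins and the nuclear-encoded respiratory chain go from 71.4% and 61.2% to 8 of 77 and 3 of 49 genes, while clock genes and the mitochondrial genome hold their counts.

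Genes that handle oxidants rose more often than they fell. The antioxidant response supplies glutathione, thioredoxin and iron storage, and much of it is under the factor NRF2. Of 32 genes 12 rose (37.5%) and 2 fell, with a median of 0.13, and 3 and 0 did without replicate 3. The rises numbered 7 without MSC 1 and 5 without MSC 3, and the falls 1 without MSC 1, MSC 3, MSC 4, rTMS_MSC 2 or rTMS_MSC 3. Prdx1, a peroxide-reducing enzyme, read 534, 525, 493 and 580 CPM in MSC and 626, 620, 691 and 670 CPM in rTMS_MSC. The groups did not overlap, and the rise was 0.29 ± 0.0539 (adjusted p = 0.00228). Fth1, the iron-storing ferritin heavy chain, went from 2900, 3260, 2810 and 3180 to 3550, 3670, 4430 and 3490 CPM. It rose by 0.32 ± 0.0649 (adjusted p = 0.00368) and by 0.20 without replicate 3, and its processed copy Fth1-ps5 by 0.65 ± 0.122, so reads may be split between them. Superoxide dismutase Sod1 rose by 0.32 ± 0.0733 (adjusted p = 0.00717), and by 0.19 without replicate 3. Hmox1, which degrades haem, rose by 0.19 ± 0.0600, but did not pass without MSC 1, MSC 3, MSC 4, rTMS_MSC 2 or rTMS_MSC 3 (highest adjusted p = 0.109). In the list for ferroptosis and iron handling 4 of 17 rose and 3 fell, and 1 and 1 did without replicate 3. The rises numbered 2 without MSC 1, MSC 4, rTMS_MSC 2 or rTMS_MSC 3 and 1 without MSC 3. Slc7a11, which imports cystine for glutathione, fell by 0.80 ± 0.192 (adjusted p = 0.00843), with an adjusted p without replicate 3 of 0.0705.

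Other stress lists changed little. Of 29 genes of the integrated stress response 2 rose and 2 fell, and 0 and 1 did without replicate 3. The rises numbered 0 without MSC 1, MSC 3, rTMS_MSC 2 or rTMS_MSC 3, 1 without MSC 2 and 4 without MSC 4. Chac1, which degrades glutathione and is a target of ATF4 and CHOP, read 34.5, 29.4, 29.5 and 28.1 CPM in MSC and 23.6, 20.0, 22.8 and 18.5 CPM in rTMS_MSC. It fell by 0.52 ± 0.0979 (adjusted p = 0.0025), also without replicate 3, and the OGDR libraries were higher at 64.2 to 81.1 CPM. Of 22 chaperone and sensor genes of the endoplasmic reticulum 1 rose and 3 fell, and 0 and 1 did without replicate 3. The fall that was left was that of Sel1l, which serves protein degradation (-0.38 ± 0.0802, adjusted p = 0.00452, and -0.23 without replicate 3). The falls in this list numbered 1 without MSC 3, and the rise was absent without any 1 library but MSC 2 and rTMS_MSC 4, with 2 rises without the latter. Of 21 heat shock genes 3 rose and 0 fell, and none did without replicate 3 or without MSC 3 alone, and 1 without rTMS_MSC 2. There 1 fell without MSC 2 and 2 without rTMS_MSC 4. Among 34 autophagy and lysosome genes 4 rose and 1 fell, and 1 and 0 did without replicate 3. The fall was lost without any 1 library but rTMS_MSC 1 and rTMS_MSC 4, and 3 fell without the latter. The lysosomal hexosaminidase Hexa rose by 0.27 ± 0.0609 (adjusted p = 0.00621), and the autophagosome protein Gabarap by 0.27 ± 0.0636 (adjusted p = 0.0082, and 0.0782 without replicate 3).

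Cell death genes gave no common direction. Of 26 apoptosis genes 2 rose and 5 fell, and 0 and 2 did without replicate 3. The falls numbered 3 without MSC 3, and the rises 0 without MSC 1, MSC 3 or rTMS_MSC 3 and 1 without rTMS_MSC 1 or rTMS_MSC 2. Xiap, which inhibits caspases, read 8.16, 6.77, 10.9 and 7.86 CPM in MSC and 4.13, 3.84, 1.80 and 4.61 CPM in rTMS_MSC. Its groups did not overlap, and it fell by 1.22 ± 0.215 (adjusted p = 0.00183), or by 0.85 without replicate 3. The survival protein Bcl2l2 fell by 0.32 ± 0.0615 (adjusted p = 0.00258). Apaf1, the core of the apoptosome, fell by 0.57 ± 0.145, and did not pass without MSC 3 (adjusted p = 0.0648). Bcl2 (-0.02 ± 0.0903, adjusted p = 0.901) and Bax (0.21 ± 0.0790, adjusted p = 0.0695) did not pass. Of 23 p53 targets 1 rose, Plk2, and 3 fell, and 1 and 0 did without replicate 3. The falls numbered 1 without MSC 1 or rTMS_MSC 3 and 0 without MSC 3, and the rises 0 without MSC 3 and 5 without rTMS_MSC 4.

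Lists of oxygen and fuel supply stayed near the background. Of 31 hypoxia targets 1 rose and 4 fell, and 0 and 2 did without replicate 3. The falls numbered 2 without MSC 1 or MSC 3, and 3 rose without MSC 4. Ddit4, which restrains mTORC1, read 130, 142, 141 and 140 CPM in MSC and 105, 108, 112 and 106 CPM in rTMS_MSC. It was lower in each stimulated library, by 0.36 ± 0.0580 (adjusted p = 0.00122), and the OGDR libraries were lower still at 53.1 to 61.6 CPM. Hk2, the hexokinase of fast-growing cells, fell from 82.9, 83.3, 93.9 and 74.1 to 65.5, 61.1, 47.7 and 67.0 CPM, by 0.47 ± 0.0915 (adjusted p = 0.003) and by 0.31 without replicate 3. Vegfa fell by 0.25 ± 0.0714 and did not pass without MSC 1, MSC 3, rTMS_MSC 3 or rTMS_MSC 4 (highest adjusted p = 0.082). Hif1a, the oxygen-sensing subunit, fell by 0.35 ± 0.101 and did not pass without MSC 1, MSC 3 or rTMS_MSC 2 (highest adjusted p = 0.113). In glycolysis 2 of 21 rose and 2 fell, and 0 and 1, Hk2, did without replicate 3. Rises there numbered 0 without MSC 1, MSC 3, rTMS_MSC 2 or rTMS_MSC 3 and 4 without MSC 4, and falls 1 without any of those 5 libraries.

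Lists of lipid synthesis lay near the background. Of 30 fatty acid genes 0 rose and 5 fell (16.7%), and 1 fell without replicate 3. The falls numbered 1 without MSC 1 or MSC 3, 2 without rTMS_MSC 1, and 3 without MSC 2, MSC 4, rTMS_MSC 2 or rTMS_MSC 3, and 1 rose without MSC 2. Acly, which makes cytosolic acetyl-CoA, read 321, 321, 341 and 301 CPM in MSC and 275, 265, 262 and 281 CPM in rTMS_MSC. It fell by 0.25 ± 0.0498 (adjusted p = 0.00352) and was the fall left without replicate 3. Of 25 cholesterol genes 1 rose and 3 fell, and 1 and 0 did without replicate 3. Falls numbered 1 without MSC 1 or rTMS_MSC 3 and 0 without MSC 3, and rises 0 without MSC 1, MSC 4 or rTMS_MSC 3, 2 without MSC 2 or rTMS_MSC 1 and 3 without rTMS_MSC 4. Hmgcs1, an early enzyme of that route, fell by 0.28 ± 0.0698, and did not pass without MSC 3 (adjusted p = 0.0607). Among 17 glucocorticoid-responsive genes 3 rose and 3 fell (17.6% each), against 7.14% and 10.9% over all tested genes. Without replicate 3, 1 rose and 1 fell, Per1 and Ddit4. Rises in this list numbered 0 without MSC 1 and 1 without MSC 3. The glucocorticoid receptor Nr3c1 fell by 0.30 ± 0.0702 (adjusted p = 0.00776, and 0.0721 without replicate 3).

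Genes of the extracellular matrix fell more often than they rose. The matrix is laid down by stromal and glial cells, and TGF-beta and the mechanosensor YAP are its main inducers. Of 52 matrix genes 0 rose and 13 fell (25.0%), with a median of -0.14, and 0 and 6 did without replicate 3. The falls numbered 7 without MSC 3, and 2 rose without rTMS_MSC 4. Col12a1, a collagen on the surface of fibrils, read 327, 305, 371 and 303 CPM in MSC and 227, 243, 204 and 265 CPM in rTMS_MSC. The groups did not overlap, and it fell by 0.48 ± 0.0780 (adjusted p = 0.00125). Fn1, fibronectin, went from 2990, 2930, 3090 and 2740 to 2500, 2530, 2280 and 2600 CPM, a smaller fall of 0.25 ± 0.0496 (adjusted p = 0.00327). The microfibril protein Fbn1 fell by 0.39 ± 0.0752 (adjusted p = 0.00266), and the proteoglycan Vcan by 0.36 ± 0.0805 (adjusted p = 0.00605). All 4 were also called without replicate 3, Fbn1 at -0.26 and Vcan at -0.22. Of 18 tested stromal and stem cell markers 1 rose and 3 fell, and 0 did without replicate 3. The falls among them numbered 1 without MSC 3. The gene that rose did not pass without any 1 MSC library, rTMS_MSC 3 or rTMS_MSC 4, and a different gene rose without rTMS_MSC 4. Their summed level ran from 4820 to 5020 CPM in MSC and from 4830 to 4950 CPM in rTMS_MSC, with Lum and Sfrp1 at 0. In bulk RNA, fewer cells of a type and less RNA per cell cannot be told apart.

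Of 29 TGF-beta and YAP targets 3 rose and 10 fell (34.5%, median -0.16), and 0 and 8 did without replicate 3. Between 8 and 11 fell whichever single library was left out, and the rises numbered 1 without MSC 3 or rTMS_MSC 3. Thbs1, a matrix protein that activates TGF-beta, read 911, 884, 1000 and 838 CPM in MSC and 701, 695, 598 and 774 CPM in rTMS_MSC. It fell by 0.39 ± 0.0673 (adjusted p = 0.00155), and the OGDR libraries were lower, at 242 to 264 CPM. Ccn2, the connective tissue growth factor, went from 2090, 2170, 2200 and 2260 to 1910, 1790, 1780 and 1780 CPM. Every stimulated library was lower, by 0.27 ± 0.0597 overall (adjusted p = 0.00621). Amotl2, a scaffold that YAP induces, fell by 0.44 ± 0.0736 (adjusted p = 0.00132), and Tead1, the DNA-binding partner of YAP, by 0.68 ± 0.132 (adjusted p = 0.00268; -0.45 without replicate 3). The actin crosslinkers Flna (-0.29 ± 0.0494, adjusted p = 0.00152) and Actn4 (-0.21 ± 0.0487, adjusted p = 0.00673) were among the 5 genes with the largest falls in CPM.

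Axon guidance genes had falls and no rises among their calls. Semaphorins, netrins, slits and ephrins steer growing axons through receptors such as neuropilins, plexins and Robo. Of 34 tested genes 0 rose and 11 fell (32.4%), with a median of -0.17, and 0 and 5 did without replicate 3. The falls numbered 7 without MSC 3, and 1 rose without MSC 4 or rTMS_MSC 4. Robo1, the slit receptor, read 112, 111, 139 and 106 CPM in MSC and 80.2, 83.5, 63.5 and 91.4 CPM in rTMS_MSC. It fell by 0.55 ± 0.0948 (adjusted p = 0.00155), by 0.37 without replicate 3, and was highest in MSC 3 and lowest in rTMS_MSC 3. Nrp2, a semaphorin coreceptor, went from 616, 586, 651 and 565 to 502, 492, 443 and 520 CPM, a fall of 0.31 ± 0.0556 (adjusted p = 0.00214). Nrp1, which also binds VEGF, fell by 0.60 ± 0.130 (adjusted p = 0.00523; -0.36 without replicate 3), and the semaphorin receptor Plxna1 by 0.29 ± 0.0625 (adjusted p = 0.00492).

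Neurite genes split. Of 21 genes for neurite outgrowth and its cytoskeleton 2 rose and 7 fell (33.3%), and 2 and 4 did without replicate 3, with 5 genes shared. The rises numbered 4 without rTMS_MSC 1. Dpysl3, a mediator of growth cone collapse, read 144, 138, 173 and 136 CPM in MSC and 87.2, 90.5, 60.3 and 115 CPM in rTMS_MSC. It fell by 0.74 ± 0.131 (adjusted p = 0.00183), and the OGDR libraries lay at 81.3 to 106 CPM. Map1b, a microtubule protein of growing axons, fell from 518, 461, 629 and 461 to 390, 381, 281 and 404 CPM, by 0.51 ± 0.103 (adjusted p = 0.00354) and by 0.29 without replicate 3. The dendritic protein Map2 fell by 0.88 ± 0.191 (adjusted p = 0.00541; -0.51 without replicate 3), and Map1a by 0.29 ± 0.0558 (adjusted p = 0.00279). Stmn1, which takes microtubules apart, rose from 454, 450, 409 and 505 to 541, 563, 581 and 537 CPM, by 0.29 ± 0.0564 (adjusted p = 0.00294). Summed neuronal markers ran from 409 to 437 CPM in MSC and from 443 to 553 CPM in rTMS_MSC, while Elavl4 and Nefl were at 0. Most of this sum was Uchl1, at 319, 349, 317 and 345 CPM in MSC and 357, 392, 466 and 356 CPM in rTMS_MSC. Of 6 tested markers 1 rose and 1 fell, and 0 and 1 did without replicate 3. The riser was Uchl1 (0.24 ± 0.0705), which did not pass without MSC 1, MSC 3, rTMS_MSC 2 or rTMS_MSC 3 (highest adjusted p = 0.082).

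Of 15 genes for synaptic vesicles and exocytosis 1 rose and 2 fell, and 0 and 1 did without replicate 3. Cplx2, which clamps vesicle fusion, read 24.5, 23.3, 27.0 and 22.2 CPM in MSC and 13.3, 18.5, 14.6 and 16.2 CPM in rTMS_MSC. It fell by 0.63 ± 0.107 (adjusted p = 0.0015). Vamp2, the vesicle SNARE, rose by 0.21 ± 0.0570 and did not pass without MSC 3 (adjusted p = 0.0567). The falls in that list numbered 1 without MSC 2, MSC 3 or rTMS_MSC 3. Of 22 neurotrophic factors and receptors 0 rose and 3 fell, and 1 fell without replicate 3. The falls numbered 1 without MSC 3. Erbb3, the neuregulin receptor of Schwann cells, read 168, 161, 192 and 148 CPM in MSC and 117, 113, 98.5 and 128 CPM in rTMS_MSC. Each stimulated library was lower than each MSC library, by 0.55 ± 0.0776 (adjusted p = 0.000613), or by 0.41 without replicate 3. The GDNF coreceptor Gfra1 fell by 0.26 ± 0.0664, and did not pass without MSC 3 (adjusted p = 0.052).

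Marker lists of cell identity moved little. Of 13 tested glial and Schwann markers 2 rose, Egr2 and S100b (0.25 ± 0.0558, adjusted p = 0.00601, and 0.0521 without replicate 3), and 1 fell, Erbb3, and 1 and 1 did without replicate 3. Sox10, the factor that sets Schwann cell identity, did not pass (-0.07 ± 0.0763, adjusted p = 0.55). Summed glial markers ran from 1390 to 1480 CPM in MSC and from 1410 to 1520 CPM in rTMS_MSC. Of 12 tested chromaffin markers 2 rose and 0 fell, and none did without replicate 3. The rises numbered 0 without MSC 1, MSC 3 or rTMS_MSC 3 and 1 without MSC 2, MSC 4 or rTMS_MSC 2. The enkephalin precursor Penk was one (0.26 ± 0.0847), and it did not pass without MSC 1, MSC 3 or rTMS_MSC 3 (highest adjusted p = 0.139). Th, the tyrosine hydroxylase that starts catecholamine synthesis, averaged 0.673 ± 0.437 and 0.614 ± 0.317 CPM and did not pass (-0.13 ± 0.508, adjusted p = 0.88). Of 6 tested endothelial markers none passed, with or without replicate 3, and 1 rose without MSC 2, rTMS_MSC 2 or rTMS_MSC 4, with sums of 165 to 176 and 157 to 172 CPM and Kdr at 0.

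Growth lists were mixed. Of 45 DNA replication genes 7 rose (15.6%) and 2 fell, and 2 and 2 did without replicate 3. The rises numbered 3 without MSC 1 or rTMS_MSC 2, 2 without MSC 3, and 4 without MSC 2, rTMS_MSC 1 or rTMS_MSC 3, and the falls 4 without MSC 2 and 5 without rTMS_MSC 4. Uhrf1, which keeps DNA methylation through replication, read 206, 199, 210 and 191 CPM in MSC and 160, 167, 167 and 169 CPM in rTMS_MSC. It fell by 0.28 ± 0.0531 (adjusted p = 0.00245). Gins1, part of the replicative helicase, rose by 0.34 ± 0.0813 (adjusted p = 0.0082). Of 37 mitosis genes 4 rose and 4 fell, and 0 and 2 did without replicate 3. Both counts came to 2 without MSC 1, MSC 3 or rTMS_MSC 3, and 9 fell without rTMS_MSC 4. Securin, Pttg1, rose by 0.27 ± 0.0625 (adjusted p = 0.00756, and 0.0554 without replicate 3), and the cytokinesis protein Anln fell by 0.38 ± 0.0891 (adjusted p = 0.00803).

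**Figure D5:**
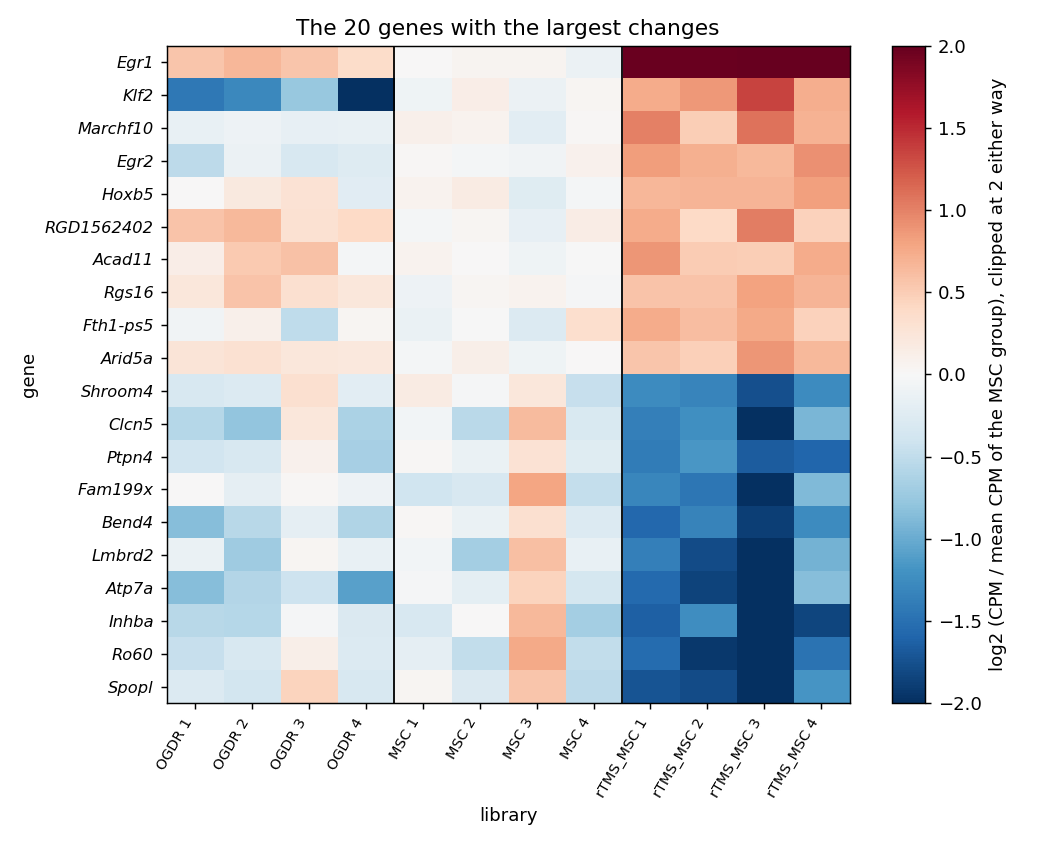
Log2 ratio of each library's CPM to the mean CPM of the MSC group (colour, clipped at 2 either way) for the 10 genes with the largest rises and the 10 with the largest falls by the naming rule, in 12 libraries. The 4 stimulated libraries are red for the upper 10 genes and blue for the lower 10, which the rule fixes by asking for no overlap between groups. Among falls MSC 3 is the reddest MSC library and rTMS_MSC 3 the bluest.

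The largest rises beyond those described were in genes of several kinds. Marchf10, a ubiquitin ligase of the MARCH family, read 6.09, 6, 4.93 and 5.79 CPM in MSC and 11.5, 8.06, 12.1 and 9.28 CPM in rTMS_MSC. It rose by 0.84 ± 0.145 (adjusted p = 0.00163), and by 0.69 without replicate 3. Arid5a, which stabilises Il6 messenger RNA, went from 24.5, 27.4, 23.9 and 25.4 to 37.1, 35.1, 46.7 and 39.7 CPM, by 0.65 ± 0.0889 (adjusted p = 0.000598). The patterning gene Hoxb5 rose by 0.71 ± 0.171 (adjusted p = 0.00867), with an adjusted p without replicate 3 of 0.0718. Acad11, an acyl-CoA dehydrogenase, rose by 0.67 ± 0.182, and did not pass without MSC 3 (adjusted p = 0.0567). RGD1562402, for which no role is given here, rose by 0.68 ± 0.137 (adjusted p = 0.00351).

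By the naming rule, each of the 10 largest falls exceeded all of the 10 largest rises other than Egr1. Bend4, which holds a BEN domain, read 11.7, 10.5, 14.5 and 9.56 CPM in MSC and 3.88, 4.58, 3.13 and 4.86 CPM in rTMS_MSC. Its groups lay apart, as the rule requires, and it fell by 1.49 ± 0.176 (edgeR quasi-likelihood test, adjusted p = 0.00024), or by 1.25 without replicate 3. Atp7a, the copper pump mutated in Menkes disease, went from 21.1, 18.9, 29.3 and 16.8 to 7.32, 6, 4.56 and 12 CPM. It fell by 1.52 ± 0.224 (adjusted p = 0.000798), and by 1.17 without replicate 3. Ro60, which binds misfolded small RNAs, read 9.06, 7.29, 17.4 and 7.33 against 3.54, 2.69, 2.01 and 3.71 CPM. MSC 3 held the highest value and rTMS_MSC 3 the lowest, and the fall of 1.77 ± 0.258 (adjusted p = 0.000767) was 1.25 without replicate 3. Spopl, an adaptor of a ubiquitin ligase, fell from 8.26, 6.57, 11.8 and 5.58 to 2.44, 2.32, 1.01 and 3.56 CPM, by 1.78 ± 0.290 (adjusted p = 0.00122), or by 1.29 without replicate 3. Lmbrd2 (-1.51 ± 0.277), Fam199x (-1.47 ± 0.325, and -0.79 without replicate 3), the phosphatase Ptpn4 (-1.43 ± 0.192), the endosomal chloride exchanger Clcn5 (-1.39 ± 0.275, and -0.87 without replicate 3) and the actin regulator Shroom4 (-1.38 ± 0.185) completed the 10 largest falls. Inhba, described above, is the tenth, and all 10 were also called without replicate 3, each at a smaller size.

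Between MSC and OGDR 2763 of the tested genes were called (20.2%), some of those above among them. Since both comparisons use the MSC libraries, their values are set side by side without a test of the relation. Egr1 stood at -0.54 in MSC against OGDR and at 2.00 in rTMS_MSC against MSC, in log2 units. For Rgs16 these values were -0.34 and 0.66, for Nr1d1 -0.31 and 0.38, and for Ciart -1.28 and 0.56. Klf2 had 1.31 and 0.94, and Nfkbia 0.53 and 0.40, so both comparisons were upward for these 2 genes. Thbs1 gave 1.84 and -0.39, Ccn2 1.48 and -0.27, and Map1b 0.85 and -0.51. Chac1 had -1.23 and -0.52, downward in both.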

How the data were processed

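Bulk RNA sequencing counts of 12 libraries were used. Per the labels' protocols, RNA was extracted with TRIzol, captured with oligo(dT) and copied with random primers. Per the submitters' processing notes, HISAT2 2.1.0, HTSeq 0.11.2, DESeq2 1.40.1 and the build mRatBN7.2 were used. The sources used here do not give the strand setting. The authors deposited raw counts of reads per gene for 30454 genes, 26135 with a symbol. The 5 summary lines were left out, and reads on no feature were 51.73% to 52.71% of the table. The series text speaks of a microarray and of more samples, while the labels describe these 12 sequencing libraries. Column names join the 2 treatments in the other order than the sample titles and were matched on both words and the number.

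With R 4.3.3 and edgeR 4.0.16, genes were kept by filterByExpr (minimum count 10, minimum total 15), scaled by TMM, and fitted with a mean per group over all 12 libraries (glmQLFit, glmQLFTest). P-values are 2-sided and Benjamini-Hochberg adjusted over 13692 genes, with a threshold of 0.05. CPM uses TMM-scaled totals and is not corrected for transcript length, so levels are not compared between genes. Depth of 18246250 to 20158683 counts limits precision for scarce genes. A count of 0 was not read as absence.

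The members and the 44 gene lists (1232 of 1253 symbols in the table) were chosen with earlier results of these data known. Named genes were the 10 largest changes per direction (among called genes with a symbol whose higher group averaged at least 5 CPM and whose values did not overlap), the 5 largest that also passed without replicate 3, up to 4 changed members of each list by p, a panel, and the 5 largest CPM differences. Not all of them are printed, and a few genes are not reported here. Library shares were compared by exact permutation tests. The fit was tested on simulated data. Alternatives were median ratio and upper quartile scaling, DESeq2 1.42.0, limma 3.58.1 voom with quality weights, no filter, the 8 libraries alone, a replicate block, leaving out libraries, and 2 added later. Promoters are from RefSeq (GRCr8) and were not used with the coordinates of the deposited build.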

Additional observations from a re-analysis of the deposited data

Results flagged for a closer look

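In 16 of 268 groups of 4 values (128 named genes in both groups, and library properties), 1 library lay apart from the other 3 by a gap that, over the range of the group, passed Dixon's 95% critical value. Chance flags about 1 in 20 groups. Of the 16 values, 11 were from MSC 3 or rTMS_MSC 3, the libraries that stood at the ends of the main axis.

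MSC 3 was high for Fam199x (8.88 CPM against 3.72 to 4.11 in the others), Clock (75.7 against 59.5 to 60.7), Nr3c1 (110 against 99.1 to 99.3) and Slc7a11 (20.6 against 13.1 to 13.7). It was low for Bst2 (62.2 against 75.8 to 77.2) and Hexa (149 against 159 to 160). rTMS_MSC 3 was low for Shroom4 (2.92 against 3.95 to 4.16), Itpr1 (64.7 against 82.0 to 85.4) and Scn1a (17.5 against 22.5 to 22.8). It was high for Cox6b1 (209 against 156 to 163) and S1pr2 (50.4 against 42.7 to 44.0). Ddit4 was low in MSC 1 (130 CPM against 140 to 142). Nr4a1 was low in rTMS_MSC 1 (107 against 122 to 124) and Ccn2 high there (1910 against 1780 to 1790). Hoxb5 was high in rTMS_MSC 4 (5.67 against 5.08 to 5.14), and Etv4 was low (88.1 against 98.8 to 100).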

How the results depend on the processing

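Median ratio scaling (2470 changed genes), upper quartile scaling (2595), DESeq2 (3038), voom with quality weights (2723) and no filter (2643) kept the counts within 1.5 times of the 2475 reported. No named gene with a call was called in the other direction under any setting run. Named genes without a call could change sign, as Arc did (0.29, and -0.37 without replicate 3). Fitting the 8 compared libraries alone gave 1758 genes, 568 of them higher, which is under the 977 reported by more than 1.5 times. Without replicate 3 of both groups the counts were 677, with 154 higher and 523 lower. Leaving out 1 library at a time gave 1006 to 3196 changed genes, 282 to 1350 higher and 724 to 1846 lower. The low ends came without MSC 3 and the high ends without rTMS_MSC 4. Of 128 named genes, some of which, such as Fos, had no call to lose, 33 lost their call without replicate 3 of both groups. The number was 23 without MSC 3 and 13 without MSC 1. Many were named for a small p or a large change, and over all genes 666 of the 2475 calls were kept without replicate 3 of both groups. Why so few libraries set the counts was not tested.

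No pairing by replicate number was seen: deviations of same-numbered libraries of the 2 groups correlated at 0.032, -0.034, -0.205 and -0.02, and 1 of 8 libraries correlated best with its own number. Whether same-numbered libraries shared a culture or a preparation was not tested. With the replicate block 1995 genes changed, 726 higher and 1269 lower, and Ccl2, Ninj1 and Penk lost their calls. Alternatives added after seeing the data were the block in a fit of the 8 compared libraries, which called 4 genes, 3 higher (Egr1, Egr2 and Rgs16) and 1 lower (Bend4), and the score on the main axis of the OGDR libraries as a covariate, which gave 2310, with 877 higher and 1433 lower. Scarce genes such as Il6, Tnf and Th had too few counts for small changes to be detectable at this depth.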
